A study of Mus musculus with 6 samples.

Results

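ING4 (Inhibitor of Growth 4) is a chromatin reader of the HBO1 acetyltransferase complex, and its loss was examined here in long-term hematopoietic stem cells (LT-HSCs), the cells at the top of the blood hierarchy. The comparison set the library of ING4-/- LT-HSCs against the library of WT LT-HSCs, which are 2 of the 6 libraries of the series. Genes with 10 or more counts in both libraries were kept, which left 11016 of 49315 genes. The other 4 libraries hold short-term HSCs (ST-HSCs) and multipotent progenitors (MPPs) of both genotypes and serve to show where LT-HSCs differ.

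Each library was made from marrow pooled from 8 to 10 mice, either WT C57BL/6 or mice that lack Ing4 in every tissue, depleted of lineage-positive cells and sorted. Between 1000 and 10000 cells of a population were collected. LT-HSCs were gated as lineage-, Sca-1+, c-Kit+ (LSK), CD48-, CD34- and CD150+ cells, ST-HSCs as the CD34+ cells of that gate, and MPPs as CD34+ CD150- cells. Each genotype and population has 1 library, so no difference below has a replicate check, no p-value is given, and the intervals cover counting error only. Genotype cannot be told apart from library, pool of mice or preparation. Fewer cells that express a gene and less of its RNA per cell cannot be told apart either.

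LT-HSCs divide rarely and are kept in a resting state by cell cycle inhibitors, low translation and a low mitochondrial activity, and they rebuild the whole blood system after transplantation. They are marked by surface receptors such as CD150 and the endothelial protein C receptor, and by transcription factors such as Hlf and Mecom. Activation brings ribosome production, respiration and entry into cycle, while stress or the handling of cells brings a rapid burst of immediate-early genes such as Fos and Jun.

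The WT LT-HSC library held 7839326 counts and the ING4-/- LT-HSC library held 35596876. The WT libraries also carried counts on genes that blood cells do not use. On 1427 olfactory and vomeronasal receptor genes there were 22.4 counts per kb of exonic length in WT LT-HSCs (95% exact Poisson interval 22.3 to 22.6) and 0.0853 in ING4-/- LT-HSCs. Scaled by gene length, this density amounts to 33.4% of all WT LT-HSC counts. It was subtracted from every gene, and levels below are background-subtracted counts scaled to a common library size (CPM). A ratio of ING4-/- to WT is given where the background made up at most 50% of the WT count, which held for 7486 of the kept genes. For the other 3530 only a lower bound could be had, and that bound reached 2-fold or more for 1823 of them.

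Length still tracked the ratio after subtraction. In the shortest of 8 length bins (57 to 1362 bases) the median log2 ratio was 0.40, and in the longest (7702 to 35531 bases) it was -0.98. The part of this trend in the gene group results below was not tested beyond the values given with the trend removed.

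**Figure D1:**
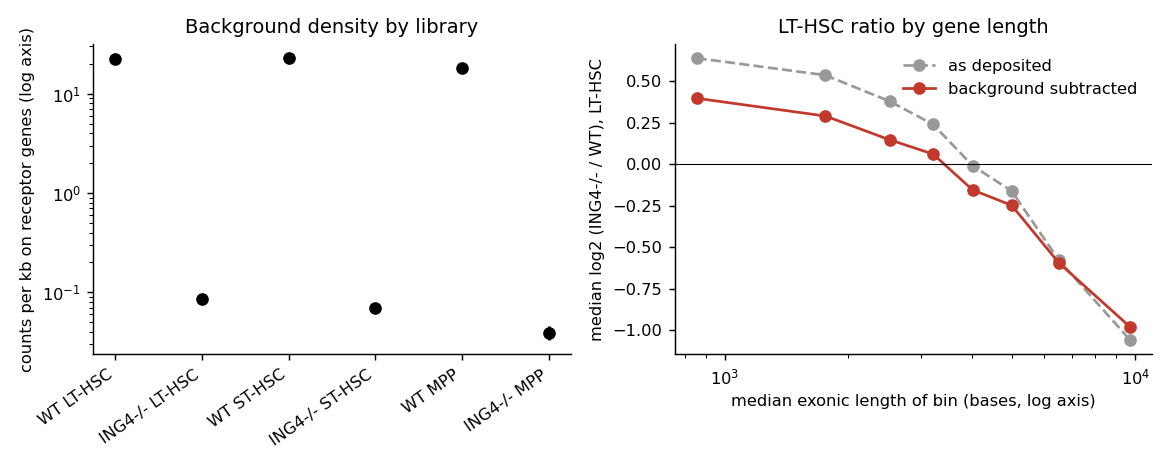
Left, counts per kb on 1427 receptor genes in each of the 6 libraries (log axis; bars, 95% Poisson intervals, mostly smaller than the points), with all WT libraries at 18.1 or more and all ING4-/- libraries below 0.1. Right, median log2 ratio of ING4-/- to WT LT-HSCs in 8 bins of exonic length (log axis) for 7486 genes, before and after background subtraction; the median goes from 0.40 to -0.98 after subtraction.

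Ing4 itself (ENSMUSG00000030330, chromosome 6, 125039760 to 125049265, plus strand, mm10) had 247 counts in WT LT-HSCs, of which 119.3 were attributed to background, and 0 in ING4-/- LT-HSCs. The WT level of 22.4 CPM was at least 278-fold above the level that 3 counts in the ING4-/- library would give. In the other ING4-/- libraries it had 24 counts in ST-HSCs and 76 in MPPs. Another annotated gene on the same strand shares 34.9% of its exonic bases.

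Transcripts of the sort genes followed the gates in part. Cd48, the SLAM receptor that the gates exclude, had 0 counts in ING4-/- LT-HSCs and 4.10 CPM in WT LT-HSCs, but 27.9 and 23.2 CPM in ST-HSCs and 105 and 46.5 CPM in MPPs. Cd34 was detected in the CD34- gate but was lowest in the LT-HSC libraries of either genotype, at 153 CPM in WT and 255 CPM in ING4-/-, against 937 and 1285 CPM in MPPs. Slamf1, which encodes CD150, was highest in LT-HSCs of either genotype. Of markers of other cells, 9 of 11 T and NK cell genes, 6 of 9 B cell genes, 6 of 10 monocyte and macrophage genes, 4 of 10 erythroid genes, 4 of 13 stromal and endothelial genes and 3 of 11 granulocyte genes had 0 counts in ING4-/- LT-HSCs. Their summed levels there ran from 48.4 to 144 CPM and from 68.1 to 245 CPM in WT LT-HSCs. Y-linked Kdm5d had 999 counts in ING4-/- LT-HSCs and 15 in WT LT-HSCs, Uty had 520 and 33, and Eif2s3y had 292 and 75. These WT counts lay below the background estimates of 339.9, 219.5 and 93.3, so no WT level could be given. Ddx3y was at 9.36 CPM in ING4-/- and 18.5 CPM in WT LT-HSCs, but background made up 52.5% of its WT count. X-linked Xist was at 123 CPM in ING4-/- and 95.1 CPM in WT LT-HSCs. The sex of the pooled mice is not given in the sources used here, and the part of these genes in any result was not tested.

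Over the 7486 genes the median log2 ratio was -0.13. A level 2-fold or more higher in ING4-/- LT-HSCs was seen for 1077 genes (14.4%), and 2-fold or more lower for 2023 (27.0%). With scaling factors from all genes, which moved the median to 0.23, the split turned to 1729 higher and 1569 lower. The same shares were 12% and 23.5% in ST-HSCs and 10.5% and 23.6% in MPPs. These shares are the background against which each gene group is read.

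The leading group was the cytosolic ribosomal proteins, the building blocks of the ribosome. All 78 had a ratio, 75 were 2-fold or more higher in ING4-/- LT-HSCs and none was 2-fold or more lower, with a median log2 ratio of 1.54. Their summed level was 40714 CPM in WT and 116110 CPM in ING4-/- LT-HSCs. With the length trend removed the median was 1.06, the lowest of any setting tried.

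Among single ribosomal genes, Rps21 had 77.7 CPM in WT and 436 CPM in ING4-/- LT-HSCs, a log2 ratio of 2.49 (counting SE 0.07). Rps12, of the small subunit, stood at 174 and 921 CPM (2.40), and Rplp2, of the stalk that recruits translation factors, at 221 and 969 CPM (2.13). Rps3a1 was the exception of the list, at 989 and 641 CPM, and a near-identical processed pseudogene covers 81.7% of its transcript, so its count is uncertain. Near-identical copies also cover 50.9% of the Rps21 and 46.4% of the Rplp2 transcript, so the same doubt applies to them. The median of the list was 1.22 in ST-HSCs and 1.51 in MPPs, and the LT-HSC ratio lay above both others for 55 of the 78 genes. Over all genes with a ratio in all populations, this held for 2244 of 6397.

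Ribosomal protein genes are known for a run of C and T letters at the transcription start. A run of 6 or more C or T letters over the start base was present in 20 of the 57 list genes that have a promoter window in RefSeq (35.1%), and in 8.5% of all 27025 genes with a window. The windows of Rps12, Rps28 and Rpl39, also among the highest ratios, and the other window of Rps21 hold no such run. The windows of 300 bases of Rplp2 (GRCm38.p6, chr7:141447401-141447700, plus strand) and of the upstream start of Rps21 (GRCm38.p6, chr2:180257129-180257428, plus strand) are shown because they hold the run, given in capitals.
Rplp2: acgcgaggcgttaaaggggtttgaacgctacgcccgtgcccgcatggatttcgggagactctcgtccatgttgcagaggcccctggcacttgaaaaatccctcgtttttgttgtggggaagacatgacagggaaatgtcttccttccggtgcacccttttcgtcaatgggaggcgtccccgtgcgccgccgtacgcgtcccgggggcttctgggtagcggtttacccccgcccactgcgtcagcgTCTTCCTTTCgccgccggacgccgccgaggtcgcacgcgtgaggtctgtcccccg
Rps21: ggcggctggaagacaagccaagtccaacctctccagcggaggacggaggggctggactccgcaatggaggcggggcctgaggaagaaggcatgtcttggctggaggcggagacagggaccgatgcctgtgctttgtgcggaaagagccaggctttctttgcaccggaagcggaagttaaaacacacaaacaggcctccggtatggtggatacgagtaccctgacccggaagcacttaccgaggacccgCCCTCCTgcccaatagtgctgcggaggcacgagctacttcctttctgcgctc
A match describes these letters only and is not evidence of a site.

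Genes that assemble ribosomes did not share this pattern. Of 43 ribosome assembly genes with a ratio, 5 were 2-fold or more higher and 10 were 2-fold or more lower. Gar1 and Nhp2, both core proteins of the particles that modify ribosomal RNA, stood at log2 ratios of 2.51 and 1.73. Utp20, a small-subunit processing factor, had 527 counts in WT and 19 in ING4-/- LT-HSCs (-6.88, counting SE 0.36), against -1.56 in ST-HSCs and -1.87 in MPPs. Translation factors had a median of 0.37, with Eif3f at 2.86 and Eif3a, the scaffold of the same complex, at -1.37.

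Respiratory chain genes were higher in ING4-/- LT-HSCs, but by less than in the other populations. For complex I the median was 0.76 in LT-HSCs against 1.10 in both other populations, and for complexes III to V it was 0.80 against 1.10 in ST-HSCs and 1.09 in MPPs. In LT-HSCs 13 of 37 and 14 of 37 were 2-fold or more higher and 1 and 0 were 2-fold or more lower. The LT-HSC ratio lay below both other populations for 23 and 26 of the 37 genes, against 2607 of 6397 over all genes. With scaling factors from all genes, however, the median difference from the mean of the others went from -0.19 to -0.001 for complex I. For complexes III to V it went from -0.24 to -0.049. With the length trend removed the LT-HSC medians were 0.34 and 0.52.

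Uqcrfs1, the iron-sulfur subunit of complex III, was at 194 CPM in WT and 125 CPM in ING4-/- LT-HSCs (-0.64), but at 162 and 240 CPM in ST-HSCs and 128 and 204 CPM in MPPs. Ndufs1, the largest subunit of complex I, was at 215 and 67.3 CPM in LT-HSCs (-1.67). Ndufa11 showed the more common pattern, at 60.4 and 187 CPM (1.63). Mitochondrially encoded genes were split: mt-Co1 stood at 0.83, while mt-Nd3 stood at -3.96. Near-identical nuclear copies cover the whole of mt-Co1 and 99.1% of mt-Nd3, so their counts are uncertain. Proteasome genes had a median of 0.37 in LT-HSCs (0.049 with the length trend removed), against 0.74 in ST-HSCs and 0.59 in MPPs, and 8 of 31 were 2-fold or more higher. Their median LT-HSC difference from the mean of the others went from -0.215 to -0.026 with scaling factors from all genes.

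**Figure D2:**
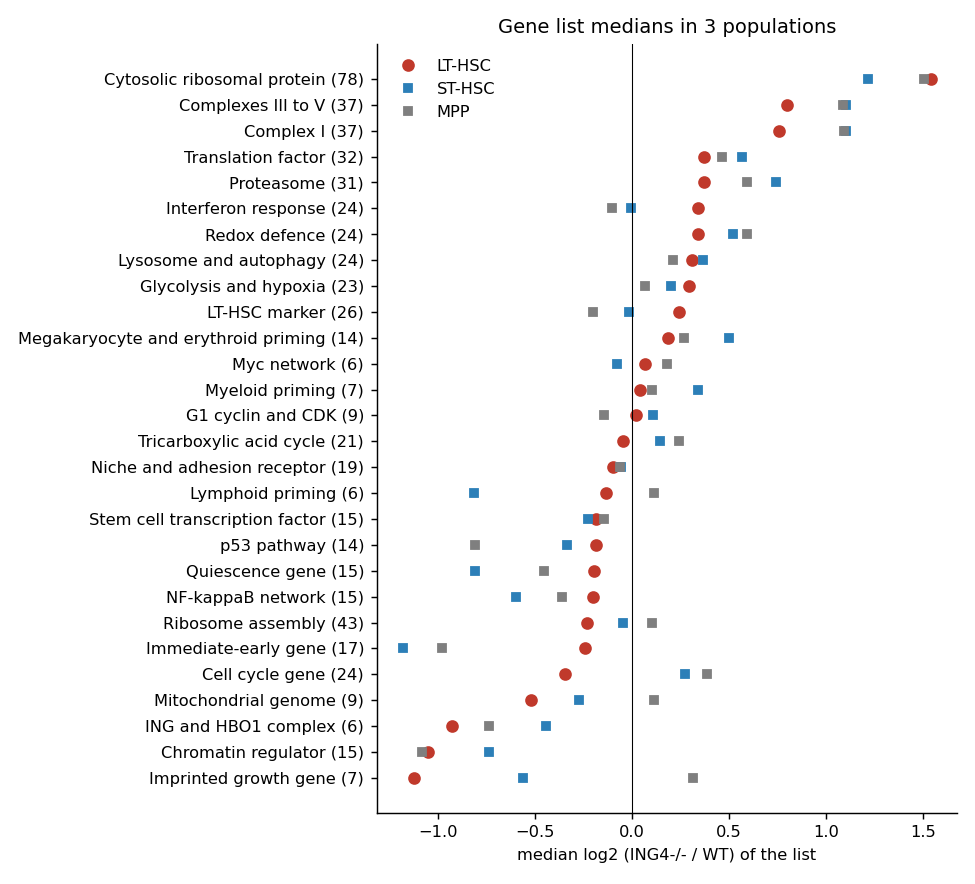
Median log2 ratio of ING4-/- to WT for gene lists with at least 5 ratios (number with an LT-HSC ratio in brackets), in LT-HSCs (circles), ST-HSCs and MPPs (squares), 1 library per genotype and population. Cytosolic ribosomal proteins stand at the top at 1.54 in LT-HSCs, and the immediate-early and cell cycle lists are among those where the LT-HSC point lies apart from both others.

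Genes that mark LT-HSCs were on balance slightly higher in ING4-/- LT-HSCs. Its median log2 ratio was 0.24 over 26 genes, with 6 of them 2-fold or more higher and 3 lower, against -0.02 in ST-HSCs and -0.20 in MPPs. Of the 21 genes with a ratio in all 3 populations, 15 had their highest ratio in LT-HSCs and 1 its lowest. Over all 6397 genes with such ratios, the LT-HSC ratio was highest for 2244 and lowest for 2607. The median of the LT-HSC log2 ratio minus the mean of the other populations, called the population difference here, was 0.67, and it stayed between 0.51 and 0.86 under 13 other settings. With 1 library each, this difference was not tested.

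Ndn, an imprinted growth suppressor linked to HSC rest, was at 70.7 CPM in WT and 266 CPM in ING4-/- LT-HSCs (log2 ratio 1.91, counting SE 0.08), at 29.9 and 54.5 CPM in ST-HSCs (0.86), and at 26.6 and 72.6 CPM in MPPs (1.45). The transcription factor Hlf was at 85.1 and 198 CPM (1.22), and Tek, the angiopoietin receptor that holds HSCs in their niche, at 79.0 and 188 CPM (1.25). In MPPs Tek was lower in ING4-/-, at 82.7 and 49.1 CPM.

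Slamf1 was lower in ING4-/- cells of each population but least so in LT-HSCs. It was at 149 CPM in WT and 93.2 CPM in ING4-/- LT-HSCs (-0.67), at 112 and 23.0 CPM in ST-HSCs (-2.29) and at 29.4 and 7.26 CPM in MPPs (-2.02). Procr, the endothelial protein C receptor, was at 82.7 and 112 CPM in LT-HSCs (0.44) and showed ratios near 0 in the others. The lowest members were Prdm16 (-2.75), Fgd5 (-2.34) and Gata2 (-1.04), all transcription or signalling regulators of HSCs. Gprc5c, another marker, had 0 counts in ING4-/- LT-HSCs with 5.69 CPM in WT.

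The largest LT-HSC shift among the sort genes with a ratio was in Ly6a (ENSMUSG00000075602, chromosome 15, 74994877 to 74998031, minus strand), which encodes Sca-1, an interferon-inducible surface protein of mouse HSCs. It stood at 77.3 CPM in WT and 337 CPM in ING4-/- LT-HSCs (log2 ratio 2.13, counting SE 0.07), at 51.8 and 53.1 CPM in ST-HSCs (0.04), and at 78.7 and 137 CPM in MPPs (0.80). The difference from the other populations was 1.71 (counting SE 0.09). With the length trend removed the LT-HSC ratio was 1.41. Sca-1 protein is part of the gate, so cells without it were not collected. Kit was lower in LT-HSCs, at 848 and 590 CPM (-0.52), with -0.46 in ST-HSCs.

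**Figure D3:**
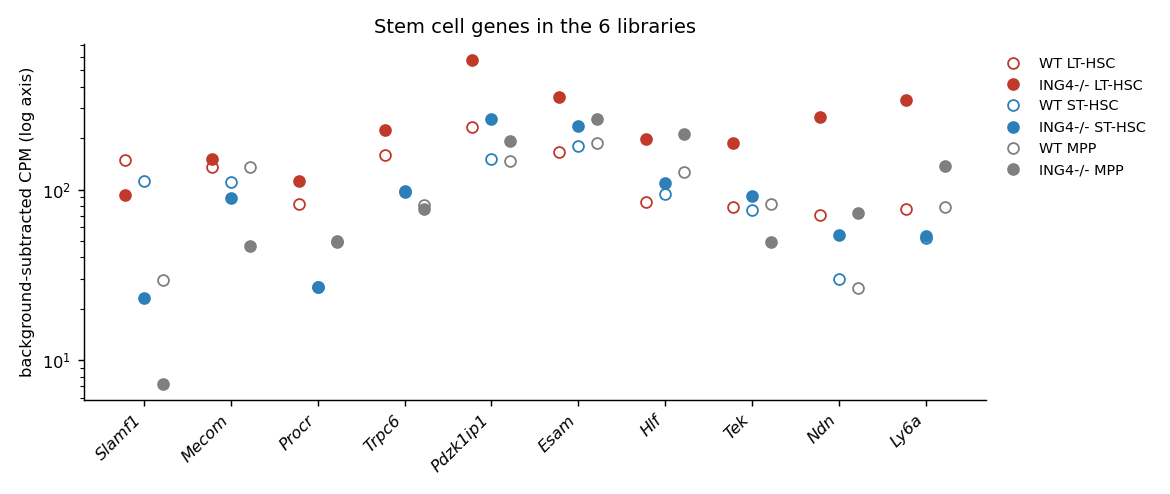
Background-subtracted CPM (log axis) of 10 stem cell genes in the 6 libraries, WT as open and ING4-/- as filled circles, 1 library each. Ly6a, Ndn and Tek are higher in ING4-/- than in WT LT-HSCs by a wider margin than in ST-HSCs, and Slamf1 is lower in ING4-/- in all populations.

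Other interferon-responsive genes leaned the same way in LT-HSCs. Over 24 genes the LT-HSC median was 0.34 (0.043 with the length trend removed), while ST-HSCs had -0.01 and MPPs -0.10. Of 22 with ratios in all populations, 13 were highest in LT-HSCs, against 2244 of 6397 over all genes. In LT-HSCs 4 were 2-fold or more higher, which at 4 of 24 is close to the 14.4% of all genes, and 2 were lower. Stat2, a signal transducer of type I interferon, stood at 39.2 and 97.4 CPM (1.31), and Ifitm3, a membrane protein that blocks viral entry, at 695 and 1449 CPM (1.06). Usp18, which limits the same signal, stood at 42.0 and 11.9 CPM (-1.82).

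A pair of GAAA blocks set 2 bases apart, the core of interferon-stimulated response elements, was found on either strand in the windows of 11 of 23 genes of this list (47.8%) and of 4.0% of all genes. The windows of Ifitm3 (GRCm38.p6, chr7:141010695-141010994, minus strand) and Stat2 (GRCm38.p6, chr10:128270248-128270547, plus strand) are shown because these genes were 2-fold or more higher in ING4-/- LT-HSCs, with the matches in capitals.
Ifitm3: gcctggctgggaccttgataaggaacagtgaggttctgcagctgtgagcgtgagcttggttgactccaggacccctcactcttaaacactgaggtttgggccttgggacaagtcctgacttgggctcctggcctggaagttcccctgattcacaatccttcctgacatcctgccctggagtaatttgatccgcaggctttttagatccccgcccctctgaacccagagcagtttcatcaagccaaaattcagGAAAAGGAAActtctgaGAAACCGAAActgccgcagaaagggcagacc
Stat2: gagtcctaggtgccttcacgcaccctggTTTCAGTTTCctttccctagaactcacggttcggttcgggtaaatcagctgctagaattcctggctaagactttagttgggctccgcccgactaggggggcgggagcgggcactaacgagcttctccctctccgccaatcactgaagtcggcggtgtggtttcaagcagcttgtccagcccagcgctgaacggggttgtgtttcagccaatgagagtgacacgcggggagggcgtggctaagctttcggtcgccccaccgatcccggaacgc
No window of Ly6a was used here.

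Immediate-early genes were closer between genotypes in LT-HSCs than in the other populations, where they were lower in ING4-/- cells. The median log2 ratio of 17 genes was -0.24 in LT-HSCs, but it ran from -0.73 with the length trend removed to 0.25 when no background was subtracted, and it was -1.18 in ST-HSCs and -0.98 in MPPs. In LT-HSCs 4 of 17 were 2-fold or more lower, against 11 genes in ST-HSCs and 10 in MPPs. Of 15 genes with all ratios, 13 were highest in LT-HSCs, against 2244 of 6397 over all genes. The median population difference of 0.67 stayed between 0.60 and 0.86 under 13 other settings.

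Junb, an AP-1 subunit that restrains HSC proliferation, was at 721 CPM in WT and 786 CPM in ING4-/- LT-HSCs (0.12), but at 448 and 185 CPM in ST-HSCs (-1.27) and 711 and 253 CPM in MPPs (-1.49). Ier2 was at 749 and 632 CPM in LT-HSCs (-0.24), and at -1.43 and -1.72 in the others. Fos, the partner of Jun, was at 2098 and 1630 CPM (-0.36), with -1.09 in ST-HSCs and -1.18 in MPPs. Jun was lower in each population, at 2471 and 971 CPM in LT-HSCs (-1.35) and at -2.80 and -2.83 in the others. Within the ING4-/- libraries each of these 4 genes was highest in LT-HSCs. Ppp1r15a, a stress-induced phosphatase subunit, was the lowest of the list in LT-HSCs, at 1340 and 290 CPM (-2.21).

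Genes of the resting state gave a mixed picture. In 15 quiescence genes the median was -0.20 in LT-HSCs (0.19 without subtraction and 0.17 with scaling factors from all genes), against -0.81 and -0.46 in ST-HSCs and MPPs. Cdkn1a, which encodes p21, was at 56.0 and 19.6 CPM in LT-HSCs (-1.51). Cdkn1c, which encodes p57, had 47 counts in WT LT-HSCs, of which 45.7 were attributed to background, and 1295 in ING4-/- LT-HSCs or 34.8 CPM. Only a bound of 3.56 on the log2 ratio could be given, and it holds only with that background. WT ST-HSCs had 28 counts where 46.4 were attributed to background, so the background of this gene may be set too high. In addition, 30.7% of its exonic bases are shared with another gene. Smad3, a transducer of TGF-beta, was at 30.0 and 83.1 CPM in LT-HSCs (1.47) but lower in ING4-/- ST-HSCs (-0.57) and MPPs (-0.85). Trp53 was at 160 and 208 CPM (0.38).

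Cell cycle genes had a lower median in LT-HSCs than in the other populations. Their LT-HSC median was -0.35 (0.01 with scaling factors from all genes), while ST-HSCs had 0.27 and MPPs 0.39, and 2 of 24 were 2-fold or more higher and 7 lower, the latter a share close to the 27.0% of all genes. Of 23 genes with all ratios, 15 were lowest in LT-HSCs and 2 highest, against 2607 and 2244 of 6397 over all genes. The median population difference of -0.54 stayed between -0.85 and -0.35 under 13 other settings. Their summed level was lowest in LT-HSCs of either genotype, at 2843 CPM in WT and 2285 CPM in ING4-/-, against 6619 and 7840 CPM in ST-HSCs.

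Some members, picked after their values were seen, had opposite signs in LT-HSCs and the others. Mcm5, a subunit of the replicative helicase, was at 218 CPM in WT and 97.1 CPM in ING4-/- LT-HSCs (-1.17), but at 391 and 468 CPM in ST-HSCs and 341 and 461 CPM in MPPs. Tyms, which makes thymidylate, was at 168 and 75.9 CPM in LT-HSCs (-1.14) and higher in ING4-/- in both others (0.35 and 0.25). Rrm1, of ribonucleotide reductase, gave -0.93 in LT-HSCs but 0.44 and 0.20 in the others. Mki67, the proliferation antigen, had 453 counts in WT and 23 in ING4-/- LT-HSCs (-6.07, counting SE 0.34), but 49.8% of its WT count was background and it was also lower in ST-HSCs (-7.15). The mitotic kinase partners Cdk1 and Ccnb2 were higher, at 1.12 and 1.13. Outside these ratios, Kif11, Aurkb and Bub1, which act in mitosis, had 0, 0 and 1 counts in ING4-/- LT-HSCs at 33.1, 13.9 and 26.4 CPM in WT. Their levels in ST-HSCs and MPPs are not given here, so these absences are not presented as particular to LT-HSCs.

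**Figure D4:**
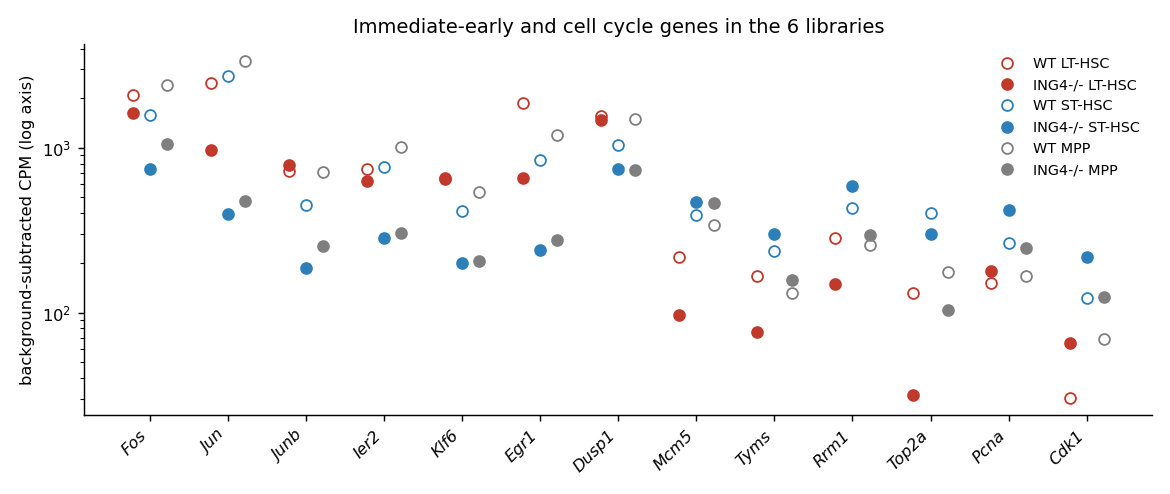
Background-subtracted CPM (log axis) of 7 immediate-early and 6 cell cycle genes in the 6 libraries, WT as open and ING4-/- as filled circles, 1 library each. Junb, Ier2 and Klf6 are close between genotypes in LT-HSCs and lower in ING4-/- ST-HSCs and MPPs, while Mcm5, Tyms and Rrm1 are lower in ING4-/- than in WT LT-HSCs only.

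Antioxidant genes had a median of 0.34 in LT-HSCs, with 8 of 24 genes 2-fold or more higher and none lower, and a median of 0.055 with the background of long genes. Gpx1, a glutathione peroxidase, stood at 1029 and 2623 CPM (1.35) and Txn1, a thioredoxin, at 221 and 445 CPM (1.01), with ratios from 1.04 to 1.31 in ST-HSCs and from 1.11 to 1.18 in MPPs. Sod1, a superoxide dismutase, differed between populations, at 123 and 104 CPM in LT-HSCs (-0.24) but 1.11 and 1.38 in the others. Glycolysis and hypoxia genes had a median of 0.29, with 1 of 23 genes 2-fold or more higher.

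Chromatin regulators had a low median, at -1.05 over 15 genes with 8 of them 2-fold or more lower, and 11 more had only a bound. With those at their bound the median was -0.50. Dnmt1, the maintenance DNA methyltransferase, was at 285 and 60.8 CPM (-2.23), and at 409 and 204 CPM in ST-HSCs. Among ING family and HBO1 complex genes, the acetyltransferase Kat7 (HBO1) was at 202 and 51.0 CPM (-1.98). Its log2 ratios were -0.71 in ST-HSCs and -0.67 in MPPs. The ING family gene Ing3 was at 26.4 and 43.3 CPM (0.71). The chromatin list had a median length of 7377 bases, within a length bin (5682 to 7701 bases) whose median log2 ratio was -0.59. Its median stayed between -1.17 and -0.43 under 13 other settings, removal of the length trend among them. The part of length in these values was not tested further.

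Among protein-coding genes with 50 or more counts in both LT-HSC libraries, background of at most 20% and little shared sequence (3107 genes), the highest log2 ratio was that of Lars2, a mitochondrial leucyl-tRNA synthetase, at 332 and 3236 CPM (3.28). Dnph1, a nucleotide hydrolase, followed at 23.9 and 148 CPM (2.63). Of the 12 highest, 6 were ribosomal protein genes (Rps21, Rps12, Rps28, Rps20, Rpl39 and Rplp2), and the others included Vapa, Slfn2 and Mgst3. The lowest were Gm10800, Gm21738 and Gm10801, predicted genes that together took 4.77% of the WT LT-HSC counts and 0.0027% of the ING4-/- counts, with similar ratios in the other populations. Next came Trim6 at 111 and 1.90 CPM (-5.87) and Usp28, a deubiquitinase, at 139 and 3.35 CPM (-5.38).

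Across 6397 genes with a ratio in all populations, the LT-HSC log2 ratio was at least 1 above the mean of the others for 790 (12.3%) and at least 1 below it for 1037 (16.2%). The SD of the difference was 1.27 between LT-HSCs and ST-HSCs and 1.26 between LT-HSCs and MPPs (1.255), and 0.94 between ST-HSCs and MPPs.

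The same limits of count, background and shared sequence held in all 3 populations for 2556 protein-coding genes. Among these, Vhl, which targets hypoxia-inducible factors for degradation, had the lowest population difference (-5.32, counting SE 0.14). It was at 112 and 4.56 CPM in LT-HSCs, 50.2 and 85.1 CPM in ST-HSCs, and 52.9 and 81.6 CPM in MPPs. Wdr24, of the complex that relays amino acids to mTORC1, was at 99.8 and 3.48 CPM in LT-HSCs and nearly level in the others (0.20 and 0.09). Aacs, Kpna2, Il18, Mbip, Chuk, Heatr3, Acot9 and Szrd1 made up the rest of the 10 lowest of the 2556 genes. Kpna2 has near-identical copies over 95.8% of its transcript.

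Of the 10 with the highest population difference among the 2556 genes, 4 were 2-fold or more higher in ING4-/- LT-HSCs and below 0 on the log2 scale in ST-HSCs. They were Ctsl, a lysosomal protease, at 69.1 and 250 CPM (1.85), Gmpr at 35.3 and 114 CPM (1.70), Sdr39u1 at 38.0 and 125 CPM (1.72), and Cd74. Cd74, the invariant chain of MHC class II, stood at 54.3 and 184 CPM in LT-HSCs (1.77), with -0.44 in ST-HSCs and 0.35 in MPPs. Brd9, a chromatin remodelling subunit, was first of the 10, at 39.3 and 65.8 CPM in LT-HSCs (0.74), with -1.86 and -2.33 in the others. Plk2 (-0.22) and Riok1 (-0.26) had ratios near 0 in LT-HSCs and at or below -1.94 in both others, whereas Zw10 was near 0 in LT-HSCs (-0.07) and ST-HSCs (-0.11) and low in MPPs (-4.77).

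Some genes with counts in WT LT-HSCs were nearly absent from the ING4-/- LT-HSC library. Of 3341 protein-coding genes within the same WT limits, 220 had fewer than 10 counts in it (6.59%). The shares were 3.47% in ST-HSCs and 3.05% in MPPs. Each share is over the genes within the WT limits of that population, so the gene sets differ. Of the 220, 27 had 50 or more counts in both other ING4-/- libraries, and the counterparts for ST-HSCs and MPPs were 3 and 1. Tfrc, the transferrin receptor, was among them with 700 counts in WT and 0 in ING4-/- LT-HSCs, as was Depdc5, an mTORC1 inhibitor, with 1491 and 2. Both were also lower in ING4-/- than WT cells of the other populations, Tfrc at -2.53 in ST-HSCs and -2.74 in MPPs and Depdc5 at -3.95 and -5.11. Another 179 of the 220 had fewer than 10 counts in both other ING4-/- libraries as well, so their absence was not particular to LT-HSCs.

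**Figure D5:**
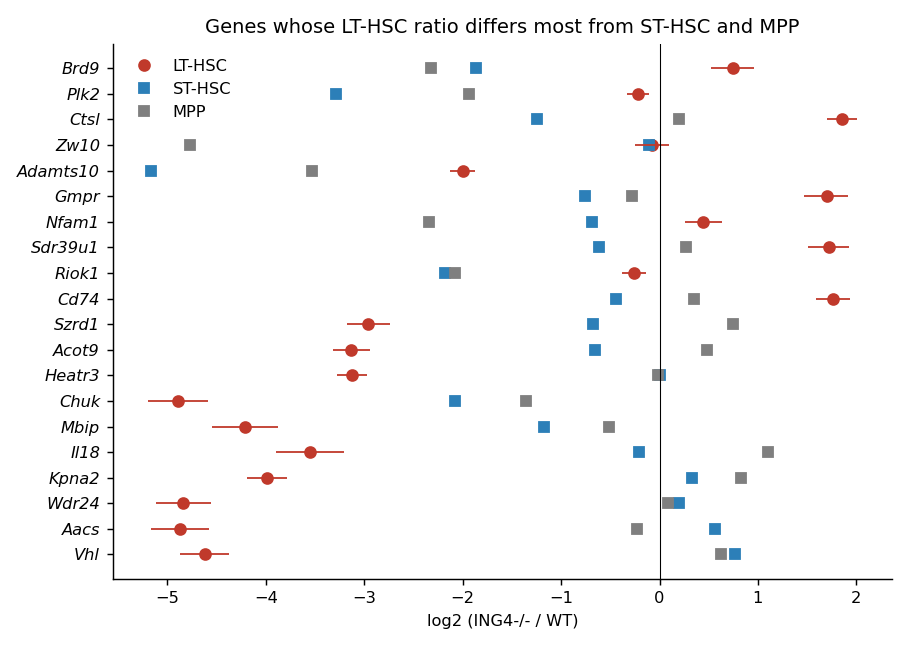
Log2 ratio of ING4-/- to WT for the 10 genes with the highest and the 10 with the lowest LT-HSC ratio relative to the mean of ST-HSCs and MPPs, chosen for that difference. They come from 2556 protein-coding genes within the count, background and shared-sequence limits in all populations. Circles, LT-HSCs with 95% counting intervals, and squares, ST-HSCs and MPPs. Vhl, Wdr24, Aacs and Kpna2 are far below 0 in LT-HSCs and near or above it in the others.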

How the data were processed

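The authors deposited raw read counts per gene for 6 libraries, with no normalization. The build is mm10 per the labels, and the aligner, counter and strand setting are not given in the sources used here. Symbols and biotypes came from GENCODE vM21 (48970 of 49315 IDs matched). Background was the count per kb of exonic length on 1427 receptor genes of each library, multiplied by each gene's length and subtracted. Libraries were scaled by TMM (edgeR 4.0.16) over 9673 genes with 10 or more counts in every library. The SE of a log2 ratio is its counting error. Ratios were checked on simulated counts. Gene copies were searched with BLAST 2.17.0 (95% identity, 100 bases), and promoter windows (250 bases before to 50 after the start) came from RefSeq GRCm38.p6.

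Genes named are fixed genes of interest and the 2 highest and 2 lowest of each of the gene lists. Added to these are the 12 highest and 12 lowest LT-HSC ratios and the 10 highest and 10 lowest population differences within the limits given above. List members beyond these, Kdm5d and the other sex-linked genes, and the genes absent from ING4-/- LT-HSCs were picked after their values were seen. Members and lists were chosen with earlier results of these data known. Alternatives were other background, scaling, count, fold and length settings (DESeq2 1.42.0 for size factors). No test was run because each group has 1 library. Some named genes are not reported here.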

Additional observations from a re-analysis of the deposited data

Results flagged for a closer look

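For several gene lists and named genes the LT-HSC log2 ratio of ING4-/- to WT had the opposite sign to those of both ST-HSCs and MPPs. With 1 library each, none of these differences was tested. Among list medians these were cell cycle genes at -0.35, LT-HSC markers at 0.24, interferon-responsive genes at 0.34 and tricarboxylic acid cycle genes at -0.049. The last lay above the -0.13 of all genes. It turned to 0.29 without subtraction, 0.058 with scaling by total and 0.31 with scaling factors from all genes. In ST-HSCs the medians of LT-HSC markers and interferon-responsive genes were near 0, at -0.016 and -0.006.

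Of genes chosen for their population difference, Vhl stood at -4.62 (0.76 and 0.62 in the other populations), Wdr24 at -4.84, Kpna2 at -3.99, Gmpr at 1.70, Brd9 at 0.74 and Nfam1 at 0.45. Their sign is partly a product of that choice.

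Of the list extremes, Smad3 (1.47), Pfkp (0.86), Ing3 (0.71), Xpc (0.69), Spi1 (0.46) and Rbl2 (0.33) were above 0 in LT-HSCs and below it in the others. Glrx (-0.84), Psmd1 (-0.73), Uqcrfs1 (-0.64), Atg12 (-0.59) and Cyc1 (-0.22) were below 0 in LT-HSCs and above it in the others. The same held for Mcm5 (-1.17), Tyms (-1.14), Rrm1 (-0.93) and Sod1 (-0.24), and the reverse for Mecom (0.16) and Junb (0.12), all of which were picked after their values were seen.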

How the results depend on the processing

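Counts of genes depended on the settings. Those 2-fold or more higher and lower were 2202 and 3170 without subtraction, 592 and 1342 with the background density of 40 long tissue-restricted genes in the WT libraries (37.9 counts per kb in WT LT-HSCs; the receptor density was kept in ING4-/-), and 493 and 723 with background limited to 20%. With a fold of 4 they were 171 and 971, and with 1.5 the higher genes were 1869. Scaling factors from all genes gave 1729 higher genes. Genes with a population difference of at least 1 above and below were 1718 and 1680 without subtraction, 443 and 547 with the long genes, and 163 and 321 with the 20% limit.

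LT-HSC list medians moved beyond the exact binomial rank interval of the median as follows. Without subtraction they were 0.25 (immediate-early), 1.14 (complex I), 1.23 (complexes III to V) and 1.99 (ribosomal proteins). With the long genes, complex I was 0.50 and ribosomal proteins 1.27. With the length trend removed they were -0.73, 0.34, 0.52 and 1.06. With scaling factors from all genes, an alternative added after seeing the data that moved the median of all genes from -0.13 to 0.23, they were 0.12, 1.12, 1.16 and 1.90, and population differences were -0.001 (complex I), -0.049 (complexes III to V) and 0.41 (ribosomal proteins). Under at least 1 setting the LT-HSC median changed sign for 15 of 30 lists and the population difference for 11 of 30, among them NF-kappaB genes, whose difference went from -0.56 to 0.12 without subtraction. A GC-dependent background, also added after seeing the data, moved none of these 6 lists past its interval.

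Depth limits the WT side, where 3 counts correspond to 0.526 CPM against 0.0806 CPM in ING4-/- LT-HSCs. Within LT-HSCs no paired analysis was possible because each genotype has 1 library.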

Other observations

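Genes that prime stem cells towards blood lineages showed modest LT-HSC medians, at 0.04 over 7 myeloid, -0.13 over 6 lymphoid and 0.19 over 14 megakaryocyte and erythroid genes, and the signs of the first and second lists changed under some settings. Prtn3, a granule protease, was at 104 CPM in WT and 248 CPM in ING4-/- LT-HSCs, and Klf1, the erythroid transcription factor, at 18.9 and 54.6 CPM. Csf3r, the G-CSF receptor, was at 65.8 and 19.2 CPM, and Car1, an early erythroid carbonic anhydrase, at 235 and 86.5 CPM. Itgb3, an integrin of megakaryocytes and HSCs, was at 113 and 13.2 CPM in LT-HSCs (log2 ratio -3.10) and nearly level in ST-HSCs (0.22) and MPPs (-0.01).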
